A study of Homo sapiens with 24 samples.

Results

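The genes described here are the D-type cyclins, the kinases they activate, the inhibitors of those kinases and RB1, the protein on which they act. They were taken as the rows of the deposited table whose symbol was CCND1, CCND2, CCND3, CDK4, CDK6, RB1, CDKN2A, CDKN2B, CDKN2C or CDKN1B, and all 10 were present among the 18889 genes listed. Cyclins D1, D2 and D3 bind CDK4 or CDK6, and the complexes phosphorylate RB1, which in its unphosphorylated form holds back the E2F transcription factors that switch on genes for DNA replication. The INK4 proteins p16INK4a, p15INK4b and p18INK4c, encoded by CDKN2A, CDKN2B and CDKN2C, bind CDK4 and CDK6 directly, whereas p27, encoded by CDKN1B, belongs to a family that binds cyclin-CDK complexes. Cyclin D1 is a known target of estrogen receptor signaling, and drugs that block CDK4 and CDK6 are in clinical use in ER+ breast cancer.

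The study asked how a hyperglycemic environment alters ER+ breast cancer cells. RNA-Seq was done on 3 established human breast carcinoma lines, HCC1500, ZR-75-30 and MDA-MB-175, each grown for 48 hours in serum-free medium with 5 mM glucose (low glucose, the control) or 25 mM glucose (high glucose), after conditioning in low-glucose medium. Each of the 6 groups had 4 cultures. No gene was altered in any group, each line stands for 1 tumor, and the labels do not say how the cultures of a group were separated, so the p-values measure the spread between these cultures, which may be technical. Values are normalized read counts as deposited, mean ± SD of 4 cultures unless stated, and log2 changes are high minus low glucose on the log2(value + 1) scale ± SE. Adjusted p-values are from limma with Benjamini-Hochberg correction over all genes tested, two-sided, and a gene was called at an adjusted p under 0.05.

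The recovered reads per culture ranged from 9140024 to 17998819. TXNIP, a gene induced by glucose, was higher in high glucose in every line, rising by 0.39 ± 0.04 for MDA-MB-175, 0.76 ± 0.04 for ZR-75-30 and 1.02 ± 0.07 for HCC1500 on the log2 scale, in the direction the labels give. The 9 luminal epithelial markers summed to between 31594.9 and 64553.3 per culture, although PGR was near 0 in ZR-75-30 and MDA-MB-175, and CDH1 averaged only 55.6 in ZR-75-30 at low glucose. In ZR-75-30 this sum moved with glucose, from 49036.9 to 53679.5 across low glucose cultures and from 34942.2 to 40810.4 across high glucose cultures. Of the leukocyte markers chosen, only CD14 and CD68 had values, and PTPRC and CD3E were not among the genes listed. CD14 and CD68 were low but also moved, with sums of 5.54 to 6.82 at low and 33.6 to 43.9 at high glucose in ZR-75-30, 1.72 to 3.80 and 10.03 to 28.2 in HCC1500 and 2.01 to 5.69 and 5.08 to 12.5 in MDA-MB-175. The 5 fibroblast markers summed to at most 256 and the 2 endothelial markers with values to at most 77.7 in any culture. The part of these markers in the results below was not tested. HCC1500 high glucose culture 3 stood apart from the other 3 cultures of its group. Its mean correlation with them was 0.9443, against at least 0.9762 for each of the others with its group. Its deviation from the mean of the other 3 fell with exon length (Spearman rho -0.54 over 13021 genes, a description across genes). Each of the other 3 cultures of the group had 0.45 to 0.46, measured against a mean that includes culture 3, so these values do not show a length trend of their own. The cultures of all other groups had -0.30 to 0.23. In pairs of cultures including it, the squared differences were 85.41 to 93.97 times those of sampling noise (chi-square per degree of freedom), against 1.83 to 7.69 for all other pairs.

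That culture touches 7 of the 10 genes. CDK4 had a value of 2467 in it, against 1123 to 1212 in the other 3 cultures, a difference of 1.08 on the log2 scale. CCND3 was at 439.6 in it, against 211 to 228 in the others. CDKN2C was at 166, against 79.6 to 90.3. These 3 genes have short transcripts, of 1.865, 2.026 and 0.995 kb in their MANE Select form. RB1, with a transcript of 4.768 kb, was at 196 in culture 3, against 312 to 343 in the others. CDK6, at 11.663 kb the longest of the 7, was at 61.6, against 101 to 114. For this reason the glucose changes in HCC1500, and their differences from the other lines, are given with culture 3 and without it.

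**Figure D1:**
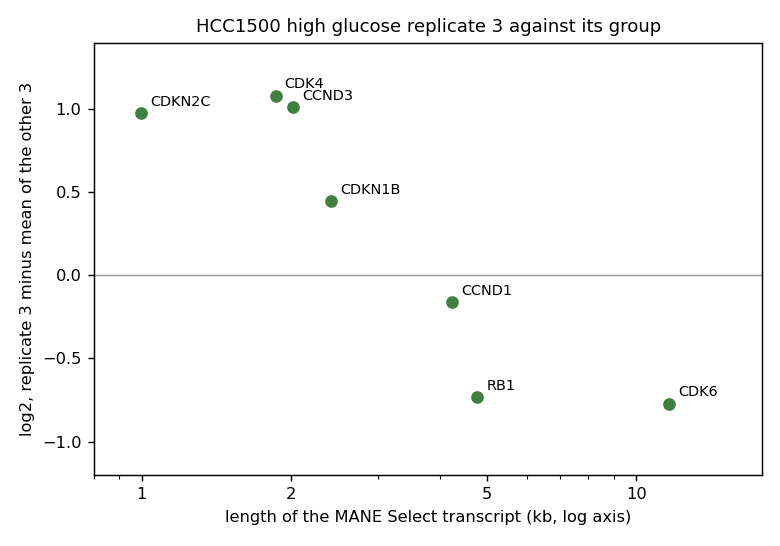
Difference of HCC1500 high glucose culture 3 from the mean of the other 3 cultures of its group (log2, vertical axis) against the length of each gene's MANE Select transcript in kilobases (log axis). CDK4 and CCND3 lie 1.08 and 1.01 above 0 and CDK6 and RB1 lie 0.77 and 0.73 below it.

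Promoter sequences are shown for 3 genes that were lower in high glucose in ZR-75-30, to set the letters before their start sites beside their changes. The sequences are from RefSeq (GRCh38.p14), which gave 1 or more promoters for 8 of the 10 genes, CCND1 and CCND2 not among them. It gave 3 start sites for CDKN2C and for CCND3, and 1 of each is shown, for CDKN2C the one with E2F-type letters. Each line gives the 250 bases before a start site, 5′ to 3′ on the gene's own strand, in lower case. The motifs searched, on both strands, were the E2F-type letters TTCCCGC and TTGGCGC, the E-box CACGTG and the GC box GGGCGG, and the capitals mark 1 kind of match in each sequence. For CDKN2C they mark TTCCCGC or its reverse complement, for CDK4 the E-box and for CCND3 the GC box or its reverse complement. The CDKN2C bases lie at chr1:50968456-50968705 on the plus strand, the CDK4 bases at chr12:57752311-57752560 on the minus strand and the CCND3 bases at chr6:41941809-41942058 on the minus strand.
CDKN2C: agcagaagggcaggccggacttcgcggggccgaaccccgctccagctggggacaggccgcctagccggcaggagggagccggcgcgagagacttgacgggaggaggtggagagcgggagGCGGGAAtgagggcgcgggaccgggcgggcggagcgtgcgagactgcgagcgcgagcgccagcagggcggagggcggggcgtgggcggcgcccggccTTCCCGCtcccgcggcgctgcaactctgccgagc
CDK4: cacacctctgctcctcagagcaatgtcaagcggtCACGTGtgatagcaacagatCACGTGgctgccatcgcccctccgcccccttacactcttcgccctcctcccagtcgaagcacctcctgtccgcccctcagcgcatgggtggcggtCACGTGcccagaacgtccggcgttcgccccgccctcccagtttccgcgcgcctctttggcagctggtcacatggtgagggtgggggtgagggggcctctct
CCND3: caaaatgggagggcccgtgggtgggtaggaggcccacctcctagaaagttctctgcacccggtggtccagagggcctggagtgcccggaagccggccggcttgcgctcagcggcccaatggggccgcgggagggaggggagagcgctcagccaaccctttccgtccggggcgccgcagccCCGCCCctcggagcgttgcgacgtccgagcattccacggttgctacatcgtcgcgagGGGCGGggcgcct
The CDKN2C sequence held 2 matches to TTCCCGC, starting 131 and 34 bases before the start site, and 5.52% of the 35116 promoters of this length in the table held at least 1. The other 2 CDKN2C promoters held no E2F-type letters. The sequence shown also held 5 copies of the GC box, which 42.6% of all promoters held, and none of these shared bases with the marked letters. The CDK4 sequence held 3 E-boxes, starting 216, 196 and 101 bases before the start site, and 6.34% of all promoters held at least 1. The CCND3 sequence held 2 GC boxes, starting 70 and 13 bases before the start site, and neither E2F-type letters nor an E-box, while the other 2 CCND3 promoters held 5 and 0 GC boxes. CDK6, with 2 promoters, and RB1, with 1, were also lower in ZR-75-30, and the promoters given for them held neither E2F-type letters nor an E-box. The 1 given for RB1, at chr13:48476200-48476449 on the plus strand, lies inside the gene, which spans chr13:48303751-48481890. The bases before the first base of RB1 were therefore not searched. A match describes the letters only.

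Per kilobase of the MANE Select transcript, CCND1 was the most abundant of the 10 genes in every group. At low glucose its level per kilobase was 1511 ± 36.9 for MDA-MB-175, 1079.6 ± 21.1 for ZR-75-30 and 2654 ± 43.3 for HCC1500, which put it 224th, 399th and 61st among 14677 genes with such a length. CDK4 came next in every group, with levels per kilobase at low glucose of 380.0 ± 26.1, 281 ± 17.5 and 645 ± 22.1. CDKN1B was the next after it in all 3 lines at low glucose, but in MDA-MB-175 its level (193 ± 8.99) and that of CCND3 (185 ± 13.8) differed by less than their spread. RB1 and CDKN2C, at 119 ± 12.5 and 125 ± 18.05 per kilobase, also lay within their spread of each other in MDA-MB-175. In ZR-75-30 CDKN2C was above both RB1 (88.9 ± 3.60) and CCND3 (129 ± 7.13), at 179 ± 20.6. CDK6 was low in all lines, at 31.5 ± 3.09 per kilobase for MDA-MB-175, 22.8 ± 1.22 for ZR-75-30 and 8.02 ± 0.897 for HCC1500. CDKN2A and CDKN2B ranked lowest of the detected genes in ZR-75-30, at 6.27 ± 2.28 and 6.71 ± 0.965 per kilobase, within their spread of each other.

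The order below CDK4 depended on the length used. With the length of all annotated exons of a gene in place of the MANE Select transcript, CCND1 and CDK4 stayed first and second in every group. In MDA-MB-175 at low glucose CDKN1B then had a level per kilobase of 50.4, below RB1 (88.2) and CCND3 (65.2). In ZR-75-30 CDKN2C, at 58.98, was below RB1, at 65.88, and CDKN2A, at 1.58, was below CDKN2B, at 6.47.

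CCND1 thus made up most of the D cyclin mRNA. Its share of the summed D cyclin level per kilobase at low glucose was 89.1% ± 0.521 for MDA-MB-175, 89.3% ± 0.344 for ZR-75-30 and 94.9% ± 0.242 for HCC1500. CDK4 made up 92.3% ± 1.14, 92.5% ± 0.248 and 98.8% ± 0.101 of the summed CDK4 and CDK6 level per kilobase in these lines. CDKN1B made up 53.7% ± 3.56, 57.4% ± 2.48 and 74.6% ± 0.620 of the summed level of the 4 inhibitor genes. With all annotated exons as the length this last share was 41.7%, 50.1% and 69.9%. CCND2 was all but absent. It had 1 read in MDA-MB-175 low glucose culture 2 and 1 read in HCC1500 high glucose culture 4, and 0 reads in each of the other 22 cultures, where a count of 0 allows a value of up to 0.953 to 2.29 depending on the culture. Such floors cover counting error only. CCND2 therefore did not pass the filter on low values in any fit and was not tested.

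**Figure D2:**
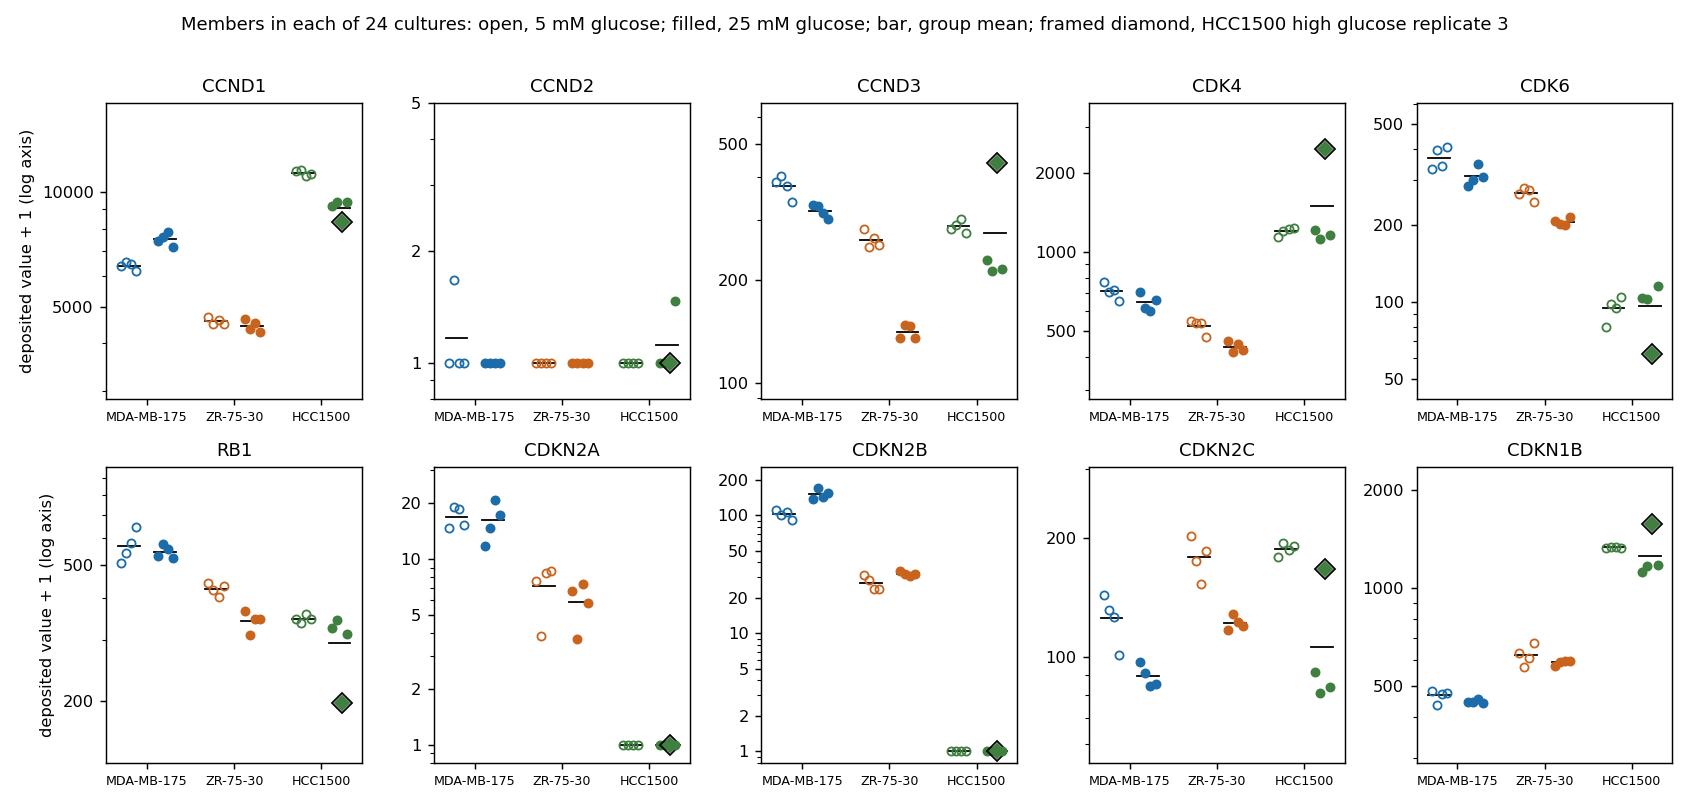
Normalized read count of each gene in every culture (value + 1, vertical log axis), by line, with open points for 5 mM and filled points for 25 mM glucose, a bar at the mean of the 4 cultures and a framed diamond for HCC1500 high glucose culture 3. CCND1 lies between 4298 and 11449.5 in all cultures, CDKN2A and CDKN2B are at 0 in all 8 HCC1500 cultures, and the diamond lies above its group for CDK4 and CCND3.

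In MDA-MB-175, 9 of the 10 genes passed the filter on low values and 5 were called, 2 higher and 3 lower in high glucose. For comparison, 25.7% of all 17029 genes tested were called, 11.9% higher and 13.7% lower. The 2 genes that rose were a D cyclin, CCND1, and an INK4 inhibitor, CDKN2B. The 3 that fell were CCND3, CDK6 and CDKN2C. In RNA from whole cultures, fewer cells that express a gene and less of its RNA per cell cannot be told apart. The median change of the 9 genes was -0.09 on the log2 scale, beside -0.02 for all genes tested. The cultures of the 2 conditions did not overlap for 4 of the 9 genes, and for 26.6% of all genes.

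CCND1 had values of 6403, 6538, 6484 and 6182 at low glucose and 7431, 7610.2, 7839 and 7183 at high glucose in MDA-MB-175. Every high glucose culture was above every low glucose culture. The means rose from 6402 ± 157 to 7516 ± 277, a log2 change of 0.23 ± 0.04 (adjusted p = 0.000400). CDKN2B, the p15INK4b gene, had values of 110.0, 99.8, 106 and 91.1 at low and 137, 170.4, 141 and 154 at high glucose. The groups did not overlap, and the change was 0.56 ± 0.09 (adjusted p = 0.000195).

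CDKN2C, the p18INK4c gene, had values of 142, 129.98, 125 and 99.7 at low and 96.1, 89.7, 83.2 and 84.1 at high glucose in MDA-MB-175. It was lower in all high glucose cultures, by -0.48 ± 0.10 on the log2 scale (adjusted p = 0.00253). CCND3 had values of 387, 403, 375 and 337 at low and 329.5, 328, 312 and 300.2 at high glucose. Its groups did not overlap, though the lowest low glucose value and the highest high glucose value were close, and the change was -0.24 ± 0.06 (adjusted p = 0.00744). CDK6 had values of 332, 395, 342 and 403 at low and 285, 299.9, 346 and 309.7 at high glucose. These groups overlapped in high glucose culture 3, and the change of -0.24 ± 0.07 (adjusted p = 0.0216) was no longer called without low glucose culture 2 (adjusted p = 0.0745), high glucose culture 1 (0.0697) or high glucose culture 2 (0.0627).

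The other 4 genes tested in MDA-MB-175 did not pass the threshold. CDK4 was at 709 ± 48.7 at low and 643 ± 47.0 at high glucose, a log2 change of -0.14 ± 0.06 (adjusted p = 0.0980). It was called without low glucose culture 4 (-0.18, adjusted p = 0.0158) or high glucose culture 1 (-0.18, adjusted p = 0.0364). RB1 was at 567 ± 59.5 and 546 ± 23.4, a change of -0.05 ± 0.06. CDKN1B was at 466 ± 21.7 and 447 ± 5.09, a change of -0.06 ± 0.05. CDKN2A was at 15.9 ± 2.29 and 15.2 ± 3.88, a change of -0.09 ± 0.21, with 27 to 34 reads per low glucose culture behind it. Reads of CDKN2A cannot be divided between p16INK4a and p14ARF, the other protein encoded by the locus.

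In ZR-75-30, 5 of the 9 genes that passed the filter were called, all lower in high glucose, and 46% of all 15834 genes tested were called, 22.7% lower. They were CCND3, both kinases CDK4 and CDK6, RB1 and CDKN2C. The median change of the 9 genes was -0.26, beside 0.01 for all genes. The groups did not overlap for 5 of the 9 genes, and for 42% of all genes.

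CCND3 changed most. Its values were 281, 249, 264 and 253 at low and 134, 146, 145 and 134 at high glucose, and the mean fell by 46.5%, from 261 ± 14.5 to 140.0 ± 6.85 (log2 change -0.90 ± 0.06, adjusted p = 2.16e-09). The highest high glucose value was far below the lowest low glucose value. CDKN2C had values of 201, 174, 152 and 185 at low and 116, 127, 121 and 119 at high glucose. It was lower in all high glucose cultures, with a log2 change of -0.55 ± 0.08 (adjusted p = 2.23e-05).

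Both kinase genes fell in ZR-75-30. CDK6 had values of 264, 278, 275 and 247 at low and 207, 201, 199 and 215 at high glucose, without overlap (log2 change -0.37 ± 0.06, adjusted p = 4.46e-05). CDK4 had values of 549, 537, 537 and 476 at low and 459, 416, 446 and 424 at high glucose. Low glucose culture 4 lay below the other 3 cultures of its group and still above all high glucose cultures, and the change was -0.26 ± 0.05 (adjusted p = 0.000391). RB1, the substrate of the kinases, had values of 439.9, 421, 401 and 434 at low and 364, 311, 346 and 347 at high glucose. It did not overlap either, with a change of -0.31 ± 0.05 (adjusted p = 0.000120). The labels and methods do not state whether counting used strand, and 1369 exonic bases of CDK4 are shared with TSPAN31 on the opposite strand, so reads of the 2 genes may not be told apart. The same limit applies to CDKN2C, which shares 617 exonic bases with ENSG00000290102, and to CDKN2A, which shares 593 with CDKN2B-AS1.

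CCND1 did not pass the threshold in ZR-75-30. It had values of 4685, 4506, 4612 and 4498 at low and 4642, 4356, 4535 and 4298 at high glucose, overlapping, with a change of -0.04 ± 0.04 (adjusted p = 0.412). With the values rescaled to CPM, reads over a common library total, it was called lower (-0.08, adjusted p = 0.0470). CDKN2B was at 25.9 ± 3.72 and 31.0 ± 1.43, a change of 0.26 ± 0.16 (adjusted p = 0.199). CDKN1B was at 621 ± 42.7 and 589 ± 10.6, a change of -0.08 ± 0.05 (adjusted p = 0.222). CDKN2A was at 6.13 ± 2.23 and 4.90 ± 1.60, a change of -0.25 ± 0.34 (adjusted p = 0.580).

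In HCC1500, CDKN2A and CDKN2B had 0 reads in all 8 cultures, and 7 of the 10 genes were tested. With all cultures, 2 were called, CCND1 and CDKN2C, both lower in high glucose, and 20.5% of all 16361 genes were called, 13% lower. The groups did not overlap for the same 2 genes and for 32.4% of all genes. Without high glucose culture 3, 4 of the 7 were called lower, CCND1, CCND3, CDKN2C and CDKN1B, and 58.5% of all 16235 genes, 37.7% lower. Without any of the other 7 cultures in turn, while culture 3 stayed in, none of the 7 was called by limma, with adjusted p-values of 0.0584 to 0.0976 for CCND1 and 0.0557 to 0.0650 for CDKN2C.

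CDKN2C had values of 177, 193, 186 and 189.9 at low and 90.3, 79.6, 166 and 82.6 at high glucose in HCC1500. All high glucose cultures were below all low glucose cultures, with culture 3 nearest to them. The change was -0.90 ± 0.22 with culture 3 (adjusted p = 0.0214) and -1.14 ± 0.07 without it (adjusted p = 1.05e-10). CCND1 had values of 11332, 11449.5, 11029.7 and 11172 at low and 9209.7, 9387, 8362 and 9437 at high glucose. It was lower in all high glucose cultures, by -0.31 ± 0.08 with culture 3 (adjusted p = 0.0291) and by -0.27 ± 0.02 without it (adjusted p = 9.38e-09). With culture 3 in, its call was lost under rescaling to CPM (-0.38, adjusted p = 0.0610) and to median-of-ratios factors (-0.25, adjusted p = 0.158).

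CCND3 had values of 281, 289, 301 and 273 at low and 228, 211, 439.6 and 214 at high glucose in HCC1500. The 3 high glucose cultures other than culture 3 were below all low glucose cultures, and the change was -0.14 ± 0.22 with culture 3 (adjusted p = 0.714) and -0.39 ± 0.05 without it (adjusted p = 3.21e-06). CDKN1B had values of 1319.5, 1337, 1336 and 1325 at low and 1114, 1162, 1567 and 1176 at high glucose. It likewise changed by -0.10 ± 0.11 with culture 3 (adjusted p = 0.601) and by -0.21 ± 0.03 without it (adjusted p = 6.65e-06).

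CDK4 had values of 1146, 1198, 1225 and 1239 at low and 1212, 1123, 2467 and 1163 at high glucose in HCC1500. Apart from culture 3 the groups overlapped, and the change was 0.23 ± 0.23 with that culture (adjusted p = 0.552) and -0.04 ± 0.03 without it (adjusted p = 0.295). RB1 was at 346 ± 8.56 at low and 294 ± 66.8 at high glucose, a change of -0.26 ± 0.17 with culture 3 and -0.08 ± 0.05 without it, neither called. CDK6 was at 93.5 ± 10.5 and 94.9 ± 22.9, a change of -0.01 ± 0.20 with culture 3 and 0.19 ± 0.09 without it (adjusted p = 0.0976). Without culture 3 and with median-of-ratios factors, CDK6 was called higher (0.31, adjusted p = 0.00803).

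With all cultures, CDKN2C was called lower in high glucose in all 3 lines, and no other of the 10 genes was called in all 3. Its call in HCC1500 was lost when any 1 of the 7 cultures other than culture 3 was left out. The share of all genes called in all 3 lines was not counted, so this does not set CDKN2C apart from other genes.

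**Figure D3:**
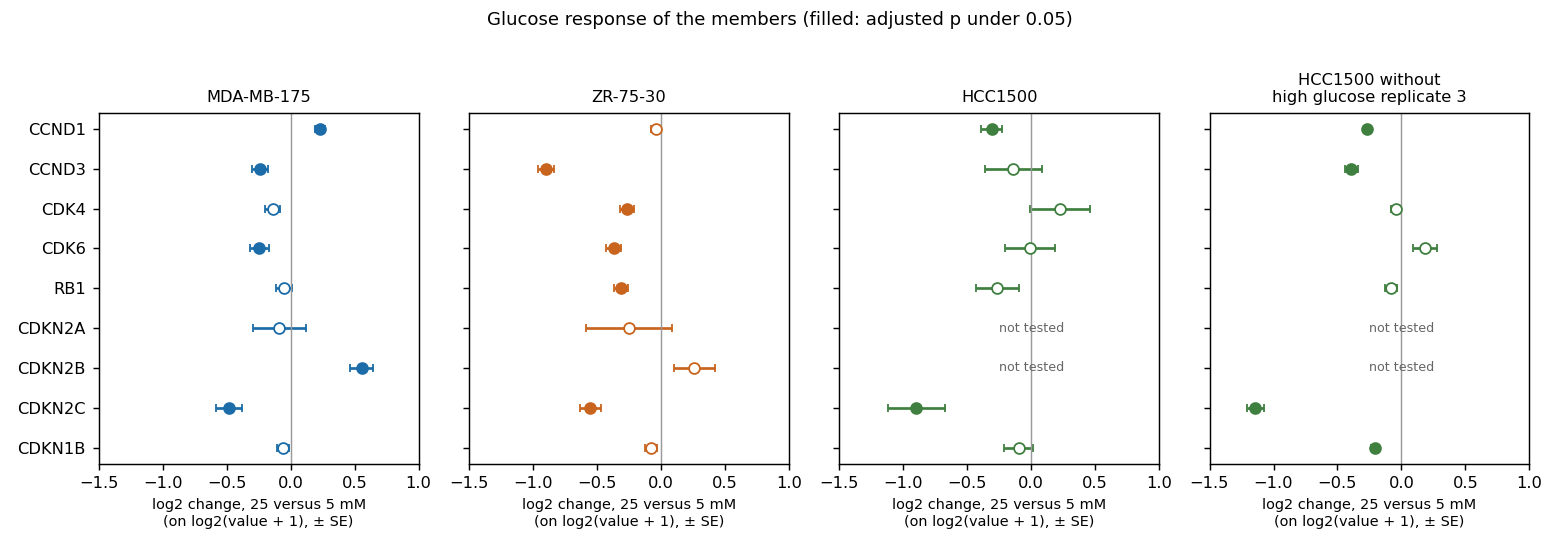
Log2 change from low to high glucose (horizontal axis, log2(value + 1) scale) of each gene in each line, with bars of 1 SE, filled points for an adjusted p under 0.05, and HCC1500 with and without high glucose culture 3. CDKN2C lies below 0 in every line, from -0.48 in MDA-MB-175 to -1.14 in HCC1500 without culture 3, and CCND1 lies at 0.23 in MDA-MB-175 and at -0.31 in HCC1500.

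The change with glucose was also compared directly between lines, in a model of all 24 cultures. Between MDA-MB-175 and ZR-75-30, 2 of the 9 genes tested differed in their change, CCND1 and CCND3, and 11.2% of all genes did. CDKN2A and CDKN2B, at 0 in HCC1500, can show no change there, so 7 genes could be compared with that line. Of these, CCND1 differed between MDA-MB-175 and HCC1500, against 17.7% of all genes, and CCND1 and CCND3 between ZR-75-30 and HCC1500, against 25.2%. These comparisons share cultures: each line enters 2 of the 3. They also share an estimate of the spread, so HCC1500 high glucose culture 3 enters the SE between MDA-MB-175 and ZR-75-30 too.

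The change of CCND1 was 0.27 ± 0.07 higher in MDA-MB-175 than in ZR-75-30 (adjusted p = 0.0122), 0.54 higher in MDA-MB-175 than in HCC1500 (adjusted p = 7.05e-06) and 0.27 higher in ZR-75-30 than in HCC1500 (adjusted p = 0.00549). The difference from MDA-MB-175 to HCC1500 was called in every alternative except a threshold of a log2 change of 1. That between MDA-MB-175 and ZR-75-30 was lost with rescaling to CPM (adjusted p = 0.111) and to median-of-ratios factors (0.0855) and with edgeR (0.0946). That between ZR-75-30 and HCC1500 was lost with median-of-ratios factors (adjusted p = 0.0906), edgeR (0.1435) and DESeq2 (0.0646). Without culture 3 the differences from HCC1500 were 0.50 for MDA-MB-175 and 0.23 for ZR-75-30, both called.

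CCND3 fell further in ZR-75-30 than in either other line. The difference was 0.66 ± 0.21 from MDA-MB-175 (adjusted p = 0.0434) and -0.76 between ZR-75-30 and HCC1500 (adjusted p = 0.00910). The former was not called when any of the 16 cultures of the 2 lines was left out, with adjusted p-values from 0.0517 to 0.0847. Its size stayed between 0.61 and 0.69. HCC1500 high glucose culture 3, which enters the shared spread of this model, stayed in all of these fits. In the fits of each line alone, the CCND3 change had an SE of 0.06 in both MDA-MB-175 and ZR-75-30. The difference between ZR-75-30 and HCC1500 was -0.50 without HCC1500 high glucose culture 3 (adjusted p = 2.16e-05). For CDKN2B the fitted difference between MDA-MB-175 and HCC1500 of 0.56 (adjusted p = 0.0271) restates the change in MDA-MB-175, since HCC1500 was at 0 in both conditions, and is not counted as a difference between lines.

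The remaining differences in response did not pass the threshold with all cultures. Between MDA-MB-175 and ZR-75-30 the kinases CDK4 and CDK6 differed in their change by 0.13 ± 0.22 and 0.12 ± 0.19, and RB1 by 0.26 ± 0.16. CDKN2A differed by 0.16 ± 0.34, CDKN2B by 0.29 ± 0.17 (adjusted p = 0.333), CDKN2C by 0.07 ± 0.23 and CDKN1B by 0.02 ± 0.11. HCC1500 high glucose culture 3, in neither line, enters these SEs through the shared spread. In the fits of each line alone, the SE was 0.06 and 0.05 for CDK4. It was 0.07 and 0.06 for CDK6 and 0.06 and 0.05 for RB1. In a fit on MDA-MB-175 and ZR-75-30 only, RB1 was called (adjusted p = 0.0422), and no other of these genes gained a call. Against HCC1500, the change in MDA-MB-175 differed by -0.10 for CCND3, -0.37 for CDK4, -0.24 for CDK6, 0.21 for RB1, 0.42 for CDKN2C and 0.04 for CDKN1B. Between ZR-75-30 and HCC1500 the differences were -0.49 for CDK4, -0.36 for CDK6, -0.05 for RB1, 0.35 for CDKN2C and 0.02 for CDKN1B. Of these, CDK4 was called with rescaling to CPM (adjusted p = 0.0247), with median-of-ratios factors (0.0256), with edgeR (0.0169) and with DESeq2 (0.0105), and without HCC1500 high glucose culture 2 (0.0473).

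More genes differed from HCC1500 when culture 3 was left out. CDK6 then differed in its change by -0.43 ± 0.11 between MDA-MB-175 and HCC1500 (adjusted p = 0.00524) and by -0.55 ± 0.11 between ZR-75-30 and HCC1500 (adjusted p = 0.000386). CDKN2C fell further in HCC1500 than in MDA-MB-175 by 0.66 ± 0.13 (adjusted p = 0.000359) and than in ZR-75-30 by 0.59 ± 0.13 (adjusted p = 0.000814). CDK4 and RB1 differed between ZR-75-30 and HCC1500, by -0.22 (adjusted p = 0.0310) and -0.23 (adjusted p = 0.0376). In all, 3 of the 7 genes detected in HCC1500 differed between MDA-MB-175 and HCC1500 and 6 of 7 between ZR-75-30 and HCC1500 without culture 3, against 32.5% and 40.5% of all genes. CDKN1B differed by 0.15 (adjusted p = 0.0510) and 0.13 (adjusted p = 0.0736).

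The lines differed from each other in most of the 10 genes, as they did in most genes. CDKN2A and CDKN2B passed the filter in this model only through MDA-MB-175 and ZR-75-30. Their difference from HCC1500, where both were at 0, is fixed by the filter, so 7 genes are counted against that line. At low glucose, 9 of the 9 genes tested differed between MDA-MB-175 and ZR-75-30 (63.8% of all genes). Against HCC1500, 7 of 7 differed in MDA-MB-175 (72.6%) and 5 of 7 in ZR-75-30 (73%). At high glucose the counts were 9 of 9 (65.8%), 5 of 7 (73.5%) and 5 of 7 (73.7%). Without HCC1500 high glucose culture 3, which also enters the shared spread, the counts against HCC1500 at high glucose were 6 of 7 (78.4%) and 6 of 7 (78%). That of ZR-75-30 at low glucose was 6 of 7 (79%). The median over all genes was itself not 0, at 0.18 for MDA-MB-175 against ZR-75-30, -0.05 for MDA-MB-175 against HCC1500 and -0.23 for ZR-75-30 against HCC1500 at low glucose. Rescaling to CPM moved these medians to 0.29, -0.14 and -0.43. Differences between lines at low glucose are therefore given both as measured and relative to the median of all genes.

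Among the D cyclins, CCND1 was highest in HCC1500 and lowest in ZR-75-30, without overlap. At low glucose it was lower in MDA-MB-175 than in HCC1500 by -0.81 (relative to the median, -0.76) and lower in ZR-75-30 than in HCC1500 by -1.30 (relative, -1.07), with adjusted p-values of 6.60e-13 and 9.92e-17. It was higher in MDA-MB-175 than in ZR-75-30 by 0.48 (relative, 0.31; adjusted p = 8.18e-09). CCND3 was higher in MDA-MB-175 than in ZR-75-30 by 0.52 at low glucose (relative, 0.34; adjusted p = 0.00365) and by 1.18 at high glucose (relative, 0.99; adjusted p = 2.43e-07). Against HCC1500 at low glucose it was higher in MDA-MB-175 by 0.39 (0.44 relative to the median, adjusted p = 0.0210). This call was lost without MDA-MB-175 low glucose culture 2 (0.36, adjusted p = 0.0548) and in a fit on those 2 lines only (adjusted p = 0.0533). Without HCC1500 high glucose culture 3 in the shared spread, CCND3 was higher by 0.39 ± 0.06 (adjusted p = 7.20e-07). In ZR-75-30 it differed from HCC1500 by -0.13 (relative, 0.10; adjusted p = 0.442), and was called lower without HCC1500 high glucose culture 3 (adjusted p = 0.0367) and with rescaling to CPM (-0.48, adjusted p = 0.000134).

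The kinases were ordered differently. CDK6 was higher in MDA-MB-175 than in HCC1500 by 1.97 at low glucose (relative, 2.02; adjusted p = 4.99e-12), and higher in ZR-75-30 than in HCC1500 by 1.503 (relative, 1.74; adjusted p = 5.34e-10). CDK4 was lower in MDA-MB-175 than in HCC1500 by -0.76 (relative, -0.71; adjusted p = 0.000134) and lower in ZR-75-30 than in HCC1500 by -1.196 (relative, -0.96; adjusted p = 3.33e-07). HCC1500 thus had the most CDK4 and the least CDK6 of the 3 lines at low glucose. Between MDA-MB-175 and ZR-75-30, CDK6 differed by 0.46 (relative, 0.28; adjusted p = 0.00377). CDK4 differed there by 0.43 (0.25 relative to the median, adjusted p = 0.0184), not called without MDA-MB-175 low glucose culture 1 (adjusted p = 0.0510) or ZR-75-30 low glucose culture 4 (0.0538). HCC1500 high glucose culture 3 stayed in the shared spread of these fits.

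RB1 was detected in all 24 cultures and was highest in MDA-MB-175. It was higher there than in HCC1500 by 0.71 (relative, 0.76; adjusted p = 1.05e-05) and than in ZR-75-30 by 0.42 (relative, 0.24; adjusted p = 0.00347), the latter not called with median-of-ratios factors (0.33, adjusted p = 0.0574). Between ZR-75-30 and HCC1500 its difference at low glucose was 0.29 (0.52 relative to the median, adjusted p = 0.0285). It turned to -0.06 with rescaling to CPM. Its call was lost in a fit on those 2 lines only (adjusted p = 0.0542). The call was also lost without ZR-75-30 low glucose culture 1 (adjusted p = 0.0627) or 4 (0.0570) or HCC1500 low glucose culture 2 (0.0595). HCC1500 high glucose culture 3 stayed in the spread of these fits. Without that culture, which is no part of the low glucose difference, RB1 was higher by 0.29 ± 0.06 (adjusted p = 8.32e-05). With CPM as well, the difference stayed at -0.06 (adjusted p = 0.354).

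Of the inhibitors, CDKN1B was highest in HCC1500. At low glucose it was lower in MDA-MB-175 than in HCC1500 by -1.51 (relative, -1.46; adjusted p = 2.27e-14), lower in ZR-75-30 than in HCC1500 by -1.10 (relative, -0.87; adjusted p = 7.32e-12) and lower in MDA-MB-175 than in ZR-75-30 by -0.41 (relative, -0.59; adjusted p = 4.77e-05). CDKN2C was lower in MDA-MB-175 than in ZR-75-30 by -0.52 (relative, -0.70; adjusted p = 0.00669) and lower in MDA-MB-175 than in HCC1500 by -0.60 (relative, -0.54; adjusted p = 0.00199). Between ZR-75-30 and HCC1500 it differed by -0.08 (relative, 0.16; adjusted p = 0.693), and was called lower with rescaling to CPM (-0.42, adjusted p = 0.00189). CDKN2B was higher in MDA-MB-175 than in ZR-75-30 by 1.94 at low glucose (relative, 1.76; adjusted p = 1.99e-12) and CDKN2A by 1.30 (relative, 1.13; adjusted p = 6.31e-05).

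At high glucose the median over all genes was 0.18 between MDA-MB-175 and ZR-75-30, and the differences are given as measured. There CCND1 was higher in MDA-MB-175 by 0.75, CDK4 by 0.56, CDK6 by 0.59, RB1 by 0.67, CDKN2A by 1.47 and CDKN2B by 2.24, and CDKN2C and CDKN1B were lower by -0.45 and -0.39, all called. The CDKN2C call was lost with rescaling to CPM (-0.18, adjusted p = 0.151). Between MDA-MB-175 and HCC1500 without culture 3, CCND1 (-0.31), CDK4 (-0.86) and CDKN1B (-1.36) were lower in MDA-MB-175, CCND3 (0.54), CDK6 (1.54) and RB1 (0.74) were higher, and CDKN2C differed by 0.07 (adjusted p = 0.528). With culture 3 the difference of CCND3 was 0.29 and not called (adjusted p = 0.0800). Between ZR-75-30 and HCC1500 without culture 3, CCND1 (-1.07), CCND3 (-0.63), CDK4 (-1.42) and CDKN1B (-0.97) were lower in ZR-75-30, CDK6 (0.95) and CDKN2C (0.51) were higher, and RB1 differed by 0.06 (adjusted p = 0.373). With culture 3 the difference of CDKN2C was 0.27 and not called (adjusted p = 0.131).

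Neither CDKN2A nor CDKN2B had a read in HCC1500, where the 8 cultures together held 103372879 recovered reads. Taking 3 reads in the HCC1500 culture with the highest floor as the limit, CDKN2B was at least 78.8-fold higher in MDA-MB-175 and at least 20.02-fold higher in ZR-75-30 at low glucose, and CDKN2A at least 12.3-fold and 4.75-fold higher. At high glucose the bounds were 67.5-fold and 13.9-fold for CDKN2B and 6.81-fold and 2.20-fold for CDKN2A.

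The 2 genes lie next to each other on the short arm of chromosome 9 (RefSeq, GRCh38.p14), CDKN2A at chr9:21967752-21995324 and CDKN2B at chr9:22002903-22009313. Their neighbors were also without reads in HCC1500. Of 26 table rows placed in order along this part of the chromosome, a window set after the values were seen, 11 in a row had 0 reads in all 8 HCC1500 cultures. They were KLHL9, MIR31HG, IFNWP19, IFNE, MTAP, CDKN2A, CDKN2B-AS1, CDKN2B, UBA52P6, DMRTA1 and ELAVL2, which span bases 21329665 to 23850601, or 2.52 Mb. MTAP, an enzyme of methionine salvage, was at 275 ± 11.5 in MDA-MB-175 and 246 ± 25.3 in ZR-75-30 at low glucose, at least 213-fold and 190.3-fold above the HCC1500 limit. KLHL9, a subunit of a ubiquitin ligase, was at least 229-fold and 386-fold higher in these lines. Of the 11 rows, 6 had reads in all 8 MDA-MB-175 cultures and 5 in all 8 ZR-75-30 cultures. The rows on either side of the run had reads in all 8 HCC1500 cultures, with 4286 reads for FOCAD before it and 724 for TUSC1 after it. The files hold no DNA measurement, and what sets these genes apart in HCC1500 was not tested.

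**Figure D4:**
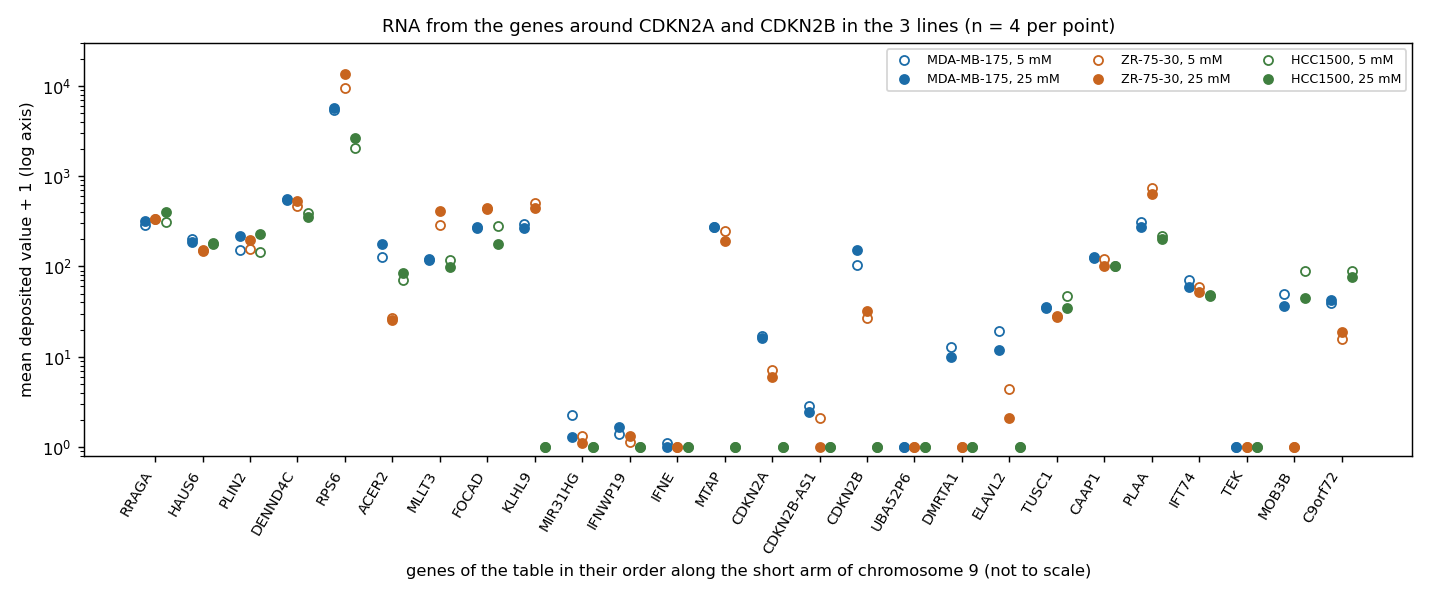
Mean normalized read count (value + 1, vertical log axis, 4 cultures per point) of 26 table rows in their order along chromosome 9, not to scale, for each line at 5 mM (open) and 25 mM glucose (filled). The 11 rows from KLHL9 to ELAVL2 are at 0 in HCC1500, while FOCAD and TUSC1 beside them are not.

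CCND1 was compared in the same way with the 11 genes listed around it on the long arm of chromosome 11, where it lies at chr11:69641156-69654474. At low glucose, 10 of these 11 genes were higher in MDA-MB-175 than in ZR-75-30, beside 39.5% of all genes, with a median difference of 1.73, beside 0.18 for all genes. Between ZR-75-30 and HCC1500, 7 were lower and 1 higher in ZR-75-30, beside 44% of all genes lower, with a median of -1.41, beside -0.23. Between MDA-MB-175 and HCC1500, 6 were higher and 3 lower in MDA-MB-175, beside 72.6% of all genes called in either direction. The median there was 0.36, beside -0.05 for all genes, whereas CCND1 was lower in MDA-MB-175, by -0.81. ORAOV1, the nearest neighbor, which shares 497 exonic bases with CCND1 on the opposite strand, averaged 251 for MDA-MB-175, 65.1 for ZR-75-30 and 476 for HCC1500 at low glucose. ANO1, a chloride channel gene, averaged 516.5, 107 and 1336, the same order of lines as CCND1. CPT1A, the mitochondrial carnitine transferase, was ordered differently, at 6203, 1782 and 804. With glucose, 1 of the 11 neighbors was higher and 3 were lower in MDA-MB-175, where 25.7% of all genes were called. In ZR-75-30 4 were higher and 1 lower of 10 tested, against 46% of all genes. In HCC1500 0 were higher and 3 lower of 10, against 20.5%, and without culture 3 it was 3 higher and 6 lower, against 58.5%.

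Genes downstream of RB1 are a further readout beside the 10. Of 20 E2F target genes, 18 were lower in high glucose in MDA-MB-175, 19 in ZR-75-30, 15 in HCC1500 and 20 in HCC1500 without culture 3, and none was higher in any line. The shares of all genes that were lower were 13.7%, 22.7%, 13% and 37.7%. The median changes were -0.30, -1.11, -0.75 and -0.92, beside -0.02, 0.01, -0.06 and -0.12 for all genes. With CPM and with median-of-ratios factors the medians kept their sign, and ZR-75-30 CDT1 remained the gene above 0. The direction of cell cycle genes in these data was known when the list was chosen. RRM2, a subunit of ribonucleotide reductase, went from 1144 ± 57.0 to 784 ± 9.51 in MDA-MB-175, from 1106 ± 56.5 to 247 ± 12.4 in ZR-75-30 and from 517 ± 21.1 to 154 ± 8.83 in HCC1500, without overlap. On the log2 scale its change in HCC1500 was -1.74 with culture 3 and -1.78 without it. CCNE2, the cyclin E2 gene, changed by -0.51, -1.81 and -1.56 in these lines, and CCNA2, the cyclin A2 gene, by -0.56, -0.96 and -1.88. Without culture 3 the HCC1500 changes of these were -1.29 and -2.03. CDT1, a replication licensing factor, did not pass in ZR-75-30 (0.08 ± 0.11, adjusted p = 0.612).

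The fall of the E2F targets was also compared between lines. Of the 20, 17 had a change that was higher, that is a smaller fall, in MDA-MB-175 than in ZR-75-30, beside 5.54% of all genes, with a median difference of 0.80. The count for MDA-MB-175 against HCC1500 was 11, beside 11.3% of all genes (median 0.48). Without HCC1500 culture 3 it was 19, beside 21.1%. For ZR-75-30 against HCC1500 the targets went both ways, with 2 changes higher and 8 lower in ZR-75-30, 10 not called and a median of -0.28, beside 25.2% of all genes called in either direction. Without culture 3 this was 3 higher and 11 lower, beside 40.5%. In the promoter table, 13 of the 17 E2F target genes found there held TTCCCGC or TTGGCGC, compared with 9.4% of 27305 genes. Of the 10 genes, 8 were found there, and of these only CDKN2C held such letters, in 1 of its 3 promoters. Members of such lists were in part picked for their link to E2F, so the share among the E2F targets describes the list.

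Among 24 other genes of the pathway, which share 6 genes with the E2F targets, 1 was higher and 7 lower in MDA-MB-175, 4 higher and 14 lower in ZR-75-30, and 3 higher and 9 lower of 23 tested in HCC1500 (6 and 14 without culture 3). The shares of all genes called were 25.7%, 46%, 20.5% and 58.5% in these fits. CDKN1A, which encodes p21, a relative of p27, was higher in all 3 lines. It went from 1384 ± 83.4 to 1568 ± 61.5 in MDA-MB-175 (log2 change 0.18 ± 0.05, adjusted p = 0.0102), from 534 ± 19.9 to 1028 ± 51.0 in ZR-75-30 (0.94 ± 0.04, adjusted p = 9.66e-12) and from 1886 ± 37.3 to 3714 ± 1120.0 in HCC1500 (0.94 ± 0.17, adjusted p = 0.00639; 0.74 ± 0.03 without culture 3). E2F7, an E2F family repressor, was lower in all 3, by -0.57, -1.83 and -1.01, and E2F2, an activator, by -0.40, -1.71 and -1.46. Without culture 3 the HCC1500 changes of E2F7 and E2F2 were -0.73 and -1.51, both called. TFDP2, which encodes a dimer partner of E2F proteins, was higher in ZR-75-30 (0.72) and lower in HCC1500 (-0.51, and -0.42 without culture 3).

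The 17 genes of cyclin D and p27 turnover and transcription showed no common direction. In MDA-MB-175 3 were higher and 3 lower of 16 tested, in ZR-75-30 4 and 6 of 17, and in HCC1500 0 and 4 of 15 (4 and 8 without culture 3). The same shares of all genes, 25.7%, 46%, 20.5% and 58.5%, stand beside these counts. SKP2, which marks p27 for degradation, was lower in all 3 lines, by -0.29, -1.10 and -0.71, while CDKN1B mRNA itself was called in none of them with all cultures. Without culture 3, CDKN1B was called lower in HCC1500 (-0.21 ± 0.03, adjusted p = 6.65e-06). FBXO4, an F-box protein linked to cyclin D1 turnover, was lower by -0.38, -0.99 and -0.87. Without culture 3 the HCC1500 changes of SKP2 and FBXO4 were -0.59 and -1.11, both called. The FOXO factors, which activate CDKN1B transcription, were higher in both MDA-MB-175 and ZR-75-30: FOXO1 by 0.65 and 0.36, FOXO3 by 0.37 and 0.75, and FOXO4 by 0.36 and 0.55. In HCC1500 FOXO3 changed by 0.07 ± 0.17 and FOXO4 by -0.10 ± 0.08, neither called. Without culture 3 FOXO3 was called higher (0.25 ± 0.06, adjusted p = 0.00109) and FOXO4 was not called (-0.11 ± 0.06).

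**Figure D5:**
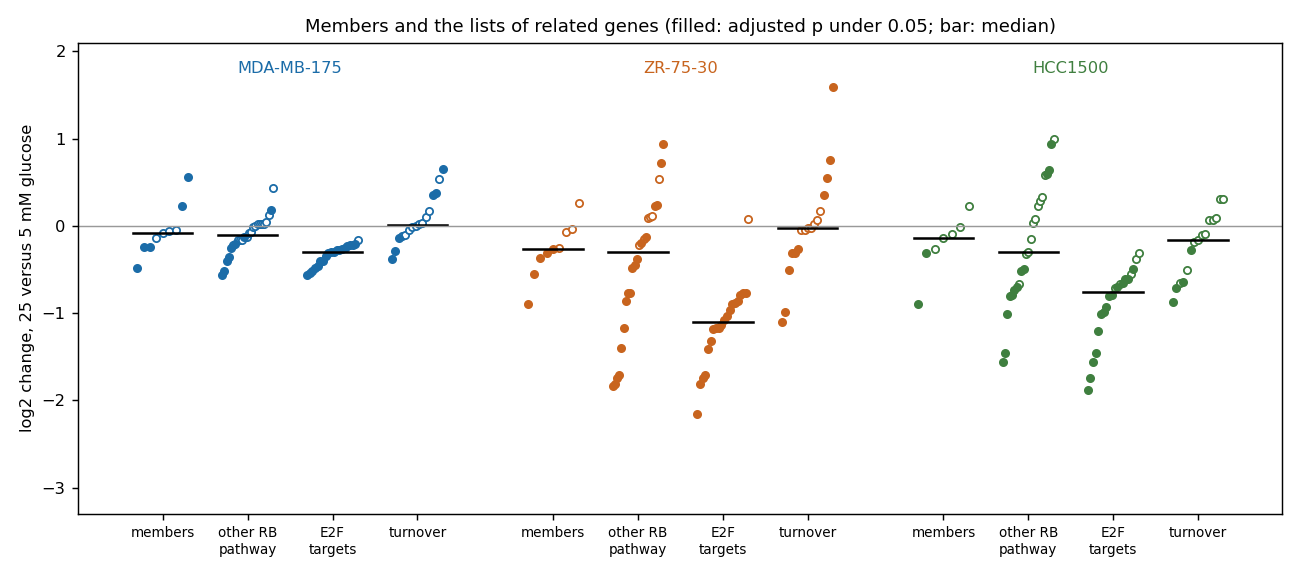
Log2 change from low to high glucose (vertical axis) of the tested genes among the 10 described here and of the pathway, E2F target and turnover lists in each line, with filled points for an adjusted p under 0.05 and a bar at each median. E2F target medians lie at -0.30 for MDA-MB-175, -1.11 for ZR-75-30 and -0.75 for HCC1500.

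By Pearson correlation of log2 values over the 24 cultures among 13310 genes, the pattern most like CCND1 was that of S1PR3 (r = 0.986), FURIN (0.984) and SYT9 (0.983). For CDK4 it was MAZ (0.994), for CDK6 MBNL3 (0.985), for RB1 PRKDC (0.974) and for CCND3 MAGOHB (0.961). For CDKN2B it was CDC14B (0.996), for CDKN1B REEP6 (0.993) and for CDKN2C PATZ1 (0.929). The 24 points come from 3 lines, and the cultures of a line lie close together, so these values describe mainly the order of the lines.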

How the data were processed

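Each of the 24 RNA-Seq samples was mapped to its group by the line, glucose and replicate number in its labels. The deposited table holds a normalized signal per gene, which the authors made by dividing whole reads by 1 factor per sample. Undoing it gave whole reads, within a tolerance of 0.01, for 100.0% of values, and 1 read was worth 0.3176 to 0.7635. The study's methods name CPM scaled by TMM factors from edgeR, but the deposited totals per sample, 5559394 to 7594840, are not on the CPM scale that the tests had assumed, and the factor behind the table is not settled. The submitters' processing notes name edgeR and hg38, while the methods describe hg19 with TopHat and DESeq2 for the tumors of the study, so the build behind the table is not settled, and its strand setting is not given in the sources used here. Symbols were split over several cells in 9 rows, which were read from the row's end, and 260 genes were at 0 in every sample.

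limma 3.58.1 in R 4.3.3 was fitted with a variance trend to log2(value + 1) of each gene that reached 0.5 in 4 or more samples of the fit, on 8 samples for glucose within a line and on 24 samples with 6 group means for comparisons between lines. The log2(value + 1) scale understates changes of low genes. edgeR 4.0.16 and DESeq2 1.42.0 on the recovered reads, other pseudocounts, filters and scalings, sample weights, and leaving out samples were alternatives. The scripts were tested on simulated data. The 10 genes are given in each comparison, those at 0 in HCC1500 by bounds, and the other lists by counts with a few members named. The genes and lists were chosen with earlier results of these data known. Gene positions are from RefSeq (GRCh38.p14), and lengths are from the MANE Select transcripts of GENCODE.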

Additional observations from a re-analysis of the deposited data

Results flagged for a closer look

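In 4 genes, HCC1500 high glucose culture 3 lay apart from the other 3 cultures of its group, as judged by its gap to the nearest of them as a share of the group's range. The share was 0.9286 for CCND3 (440 against 211 to 228), 0.9334 for CDK4 (2467 against 1123 to 1212), 0.8771 for CDKN2C (166 against 79.6 to 90.3) and 0.8646 for CDKN1B (1567 against 1114 to 1176). CDK4 in ZR-75-30 low glucose culture 4 was the other such value, with a share of 0.8293 (476 against 537 to 549). Of 50 groups tested in this way 5 were marked, and chance marks about 1 in 20.

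The change with glucose differed between lines by the test of the difference in 6 cases. For CCND1 the differences were 0.269 between MDA-MB-175 and ZR-75-30 (adjusted p = 0.0122), 0.538 between MDA-MB-175 and HCC1500 (7.05e-06) and 0.269 between ZR-75-30 and HCC1500 (0.00549). For CCND3 they were 0.656 between MDA-MB-175 and ZR-75-30 (0.0434) and -0.757 between ZR-75-30 and HCC1500 (0.00910). For CDKN2B it was 0.556 between MDA-MB-175 and HCC1500 (0.0271), where HCC1500 was at 0, so that this value restates the change in MDA-MB-175. All are on the log2 scale, by limma over all 24 samples.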

How the results depend on the processing

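Counts here are of the 10 genes called, compared with 5, 5 and 2 for glucose in the 3 lines (MDA-MB-175 first, then ZR-75-30, then HCC1500) and 2 for each difference in response (between MDA-MB-175 and HCC1500 1 of the 2 is CDKN2B, at 0 in HCC1500). The HCC1500 count became 1 without a filter, with CPM, median-of-ratios factors, edgeR, DESeq2 or the replicate block, and 4 with sample weights. The MDA-MB-175 against ZR-75-30 response count became 1 with CPM, median-of-ratios factors, edgeR or no variance trend. The MDA-MB-175 against HCC1500 response count became 1 with a pseudocount of 0.1, edgeR, DESeq2 or the replicate block, and 5 with sample weights, and the ZR-75-30 against HCC1500 count became 7 with weights. With a log2 change of at least 1, 0 genes remained called in each glucose and response comparison, and 2 and 3 between MDA-MB-175 and ZR-75-30 at low and high glucose. Between MDA-MB-175 and HCC1500 at low glucose 4 remained. Of these, CDKN2A and CDKN2B, at 0 in HCC1500, are fixed by the filter, and the others were CDK6 (1.97) and CDKN1B (-1.51). The replicate block gave 5 between MDA-MB-175 and ZR-75-30 at low glucose, without CDK4 (adjusted p = 0.0887), CDK6 (0.196), RB1 (0.322) and CDKN2C (0.174), and the fit on all 24 samples gave 2 in MDA-MB-175 and 3 in ZR-75-30. RB1 between ZR-75-30 and HCC1500 at low glucose turned to -0.063 with CPM, and the CDKN2B response difference between MDA-MB-175 and HCC1500 to -0.061 with DESeq2. The causes of these shifts were not tested. Calls over all genes also moved with several of these settings, as given below, so a shift in these counts is not particular to the 10 genes.

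The next settings were chosen after seeing the data. Without HCC1500 high glucose culture 3, the counts for HCC1500 glucose and for the responses of MDA-MB-175 and ZR-75-30 against HCC1500 were 5, 5 and 6 with median-of-ratios factors and 4, 4 and 6 with CPM, and with edgeR 5 for glucose and 6 for ZR-75-30. CDK6 in HCC1500 then changed by 0.31 (median-of-ratios) and 0.30 (edgeR), and RB1 between ZR-75-30 and HCC1500 by -0.063 at low and -0.35 at high glucose (CPM).

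Leaving out 1 culture at a time gave 4 to 6 genes for MDA-MB-175, 5 to 5 for ZR-75-30 and 0 to 4 for HCC1500. Between lines it gave 8 to 9 and 9 to 9 for MDA-MB-175 against ZR-75-30 (low, high glucose), 8 to 9 and 7 to 8 for MDA-MB-175 against HCC1500, and 6 to 7 and 7 to 8 for ZR-75-30 against HCC1500. The counts against HCC1500 include CDKN2A and CDKN2B, whose difference from that line is fixed by the filter. For the responses it gave 1 to 1, 1 to 4 and 2 to 6, the upper values of the last 2 being without HCC1500 high glucose culture 3. Over all genes the calls ran from 3529 to 5038 for MDA-MB-175, 6746 to 7135 for ZR-75-30 and 2015 to 9504 for HCC1500. For the responses they ran from 1672 to 1872, 2710 to 5887 and 4072 to 7350, with the highest values for HCC1500 and its 2 responses also without that culture.

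Over all genes, the 3350 called in HCC1500 became 9504 without culture 3, 9436 with weights, 5842 in the fit on all samples and 1964 with the replicate block. The 4368 in MDA-MB-175 became 2011 in the fit on all samples. With median-of-ratios factors the share of calls that were higher in HCC1500 moved from 36.4% to 49.3%. With CPM it moved from 61.9% to 72.4% for MDA-MB-175 against ZR-75-30 at low glucose, from 61.4% to 71.6% at high glucose, and from 39.8% to 29.5% for ZR-75-30 against HCC1500 at low glucose. Same-numbered cultures did not pair: the mean correlations of their deviations were 0.04, 0.01 and 0.02 in the 3 lines. CDKN2A, with 2.70 to 19.9 per culture where detected, is limited by depth.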
